A study of Mus musculus with 2 samples.

Results

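The genes described here are *Itga2b*, *Itga4*, *Itga6*, *Itgb1*, *Itgb2* and *Itgb7*, 6 of the 17 integrin subunit genes among the 11691 genes of the table. They were chosen on measured values, namely their difference between the embryo explant (Em-Ex) and yolk sac explant (YS-Ex) libraries in cells rich in *Cpa3* transcripts and their levels in cells poor in them, so both sets of values are given as a description with no test. Each library came from C57/BL6 mouse tissue taken at E8.5, with 5 to 7 somite pairs, as Em-Ex from the embryo proper or YS-Ex from its yolk sac. Both kinds of explant were cultured alike for 9 to 10 days by the labels, with day 10 given in the paper for the sorted cells, at an air-liquid interface with SCF, IL-3 and FLT3 ligand at 100 ng/ml each, and uncultured tissue was not analysed here. Sorted CD31+CD45+c-Kit+CD41- cells, pooled over explants, gave 1 droplet library per tissue, and the comparison asks how blood precursors grown from embryo and yolk sac differ. With 1 library per tissue, tissue and library cannot be told apart.

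Integrins are paired surface receptors, each made of an alpha and a beta chain, that bind cells to matrix or to other cells. On blood cells they lie inactive until signals from other receptors open them, when talin and kindlin bind the tail of the beta chain. The pairs of α4 with β1 and β7 bind VCAM1, fibronectin and MAdCAM1 and are known for the homing of stem cells to marrow and of mast cell progenitors to the gut. The α6β1 pair binds laminin, the β2 integrins bind ICAMs, and αIIb, the CD41 antigen, pairs with β3 on megakaryocytes and early blood precursors.

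For these genes the RefSeq promoter table, on build GRCm38.p6, held entries for *Itga2b*, *Itga4*, *Itgb1* and *Itgb7*, and none for *Itga6* and *Itgb2*. The 250 bases upstream of the start are shown for *Itga4* and *Itgb1*, whose transcripts were both higher in YS-Ex, and for *Itgb7*, the other partner of α4, which was higher in Em-Ex. Capitals mark matches on either strand to 5 short motifs, searched by their letters. GATA factors were given the letters AGATAA and the letters TGATAA. RUNX factors were given TGTGGT, and ETS factors were given CCGGAA. The E-box that MITF can bind was given CACGTG, and Sp1 was given GGGCGG. None of these motifs overlapped another in the stretches shown.
Itga4, chr2:79255176-79255425, plus strand: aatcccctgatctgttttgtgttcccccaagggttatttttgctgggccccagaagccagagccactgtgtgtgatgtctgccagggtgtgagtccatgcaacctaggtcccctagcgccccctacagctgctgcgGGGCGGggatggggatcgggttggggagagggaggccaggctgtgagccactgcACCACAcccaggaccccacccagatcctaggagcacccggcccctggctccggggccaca
Itgb1, chr8:128685404-128685653, plus strand: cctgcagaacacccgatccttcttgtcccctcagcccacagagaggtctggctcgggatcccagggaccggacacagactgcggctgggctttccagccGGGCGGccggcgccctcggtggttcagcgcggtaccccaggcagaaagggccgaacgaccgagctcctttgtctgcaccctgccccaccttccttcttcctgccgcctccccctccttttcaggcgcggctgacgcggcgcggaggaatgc
Itgb7, chr15:102231936-102232185, minus strand: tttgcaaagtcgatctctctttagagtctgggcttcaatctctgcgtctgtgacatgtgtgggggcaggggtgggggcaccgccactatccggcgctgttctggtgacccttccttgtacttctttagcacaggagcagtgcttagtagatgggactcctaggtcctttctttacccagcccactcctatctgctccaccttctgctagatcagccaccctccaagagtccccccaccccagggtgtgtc

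The *Itga4* stretch, with 64% G and C, held 1 match to the RUNX letters, read as ACCACA from 60 bases before the start, and 1 to the Sp1 letters from 114 bases before it. The RUNX letters occur in the same window of 14.0% of all 32851 promoters in the table and the Sp1 letters in 32.7%. The *Itgb1* stretch, with 68% G and C, held the Sp1 letters from 151 bases before the start and no other match, while the *Itgb7* stretch, with 56% G and C, held none of the 5 motifs. The *Itga2b* window held none of them either. The GATA letters, which occur in 16.6% of promoters, the ETS letters, in 12.0%, and the E-box, in 6.02%, had no match in any of the 4 windows. In the GENCODE annotation of GRCm38, *Itga4* runs from 79255426 to 79333123 on chromosome 2 and overlaps *Cerkl* on the opposite strand, and *Itga6* from 71745616 to 71858416 on the same chromosome with 4 overlapping noncoding gene models. *Itgb1* lies on chromosome 8 (128685654 to 128733200), *Itgb2* on 10 (77530252 to 77565708), *Itgb7* on 15 (102215995 to 102231944) and *Itga2b* on 11 (102453297 to 102470122), with 1 overlapping small RNA gene model.

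A UMI (unique molecular identifier) tags 1 captured transcript, and the cells kept held 42752370 UMIs in 3071 Em-Ex cells (4120 to 38114 per cell) and 27031627 UMIs in 2087 YS-Ex cells (3302 to 34107 per cell). Levels are in CPM, a gene's pooled UMIs per 1000000 UMIs pooled from the same cells, and the 95% intervals in parentheses cover counting error only (exact Poisson for CPM, exact conditional binomial for ratios, exact Clopper-Pearson for shares of cells). Because reads come from transcript ends, CPM is not divided by gene length. Cpa3-high cells had at least 40 UMIs of the mast cell protease gene *Cpa3* per 10000 and made up 2200 Em-Ex cells (71.6%) and 1946 YS-Ex cells (93.2%). All 10 mast cell markers listed were detected in them in both libraries, with a summed level of 42375 CPM in Em-Ex against 45714 CPM in YS-Ex. Neither *Cdh5*, *Emcn*, *Esam* nor *Kdr*, which mark endothelium, was in the table. The limit cuts a continuous range, and 284 Em-Ex and 87 YS-Ex cells had 30 to 50 UMIs of *Cpa3* per 10000. Doublets were not removed, and 35 barcodes occurred in both libraries, carried by 15 Em-Ex and 18 YS-Ex cells of the Cpa3-high class. Without cells of such barcodes the log2 ratio of Em-Ex to YS-Ex in that class was −2.65 for *Itga4*, −0.89 for *Itgb1*, 0.63 for *Itga2b*, 0.36 for *Itgb2* and 0.47 for *Itgb7*.

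Of the alpha chains *Itga2b*, *Itga4* and *Itga6*, *Itga4* differed most between the libraries. In Cpa3-high cells it was at 19.8 CPM (18.2–21.5) in Em-Ex against 126 CPM (121–130.0) in YS-Ex, 6.34-fold (5.79–6.96) higher in YS-Ex. Its log2 ratio of Em-Ex to YS-Ex, −2.66, was at percentile 0.244 among the 8618 genes with at least 5 CPM in 1 of the libraries. *Itga2b*, which encodes CD41, went the other way, at 22.9 CPM (21.2–24.8) in Em-Ex against 14.9 CPM (13.4–16.4) in YS-Ex, 1.54-fold (1.36–1.76) higher in Em-Ex. The sort had kept cells without CD41 on their surface. *Itga6* was near the limit of detection in both, at 1.83 CPM (1.36–2.41) in Em-Ex against 1.47 CPM (1.03–2.02) in YS-Ex, a ratio of 1.25 whose interval (0.798–1.96) includes 1.

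The beta chains were split in the same way. *Itgb7* was at 275 CPM (269–281) in Em-Ex against 199 CPM (194–205) in YS-Ex, 1.38-fold (1.33–1.43) higher in Em-Ex. *Itgb2*, which encodes the chain common to leukocyte integrins, was 1.28-fold (1.19–1.39) higher in Em-Ex, at 58.5 CPM (55.7–61.4) against 45.6 CPM (43.0–48.3). *Itgb1*, the partner of many alpha chains, was at 74.1 CPM (71.0–77.4) in Em-Ex against 138 CPM (133–142) in YS-Ex, 1.86-fold (1.76–1.96) higher in YS-Ex. Of the 2 partners of α4, *Itgb1* thus lay on the YS-Ex side with *Itga4*, and *Itgb7* on the Em-Ex side.

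Past 1.5-fold, *Itga2b* was higher in Em-Ex, and *Itga4* and *Itgb1* were lower. *Itga2b* was under 1.5-fold with a *Cpa3* limit of 20 (1.47-fold), with every deposited barcode (1.47-fold) and on both sides of the protease split described further on. By the same rule 8.35% of all genes compared were higher in Em-Ex and 25.2% lower, and since the 6 genes were chosen from this contrast nothing is read from their count. The median log2 ratio of all genes compared was −0.07, and that of the 5 integrin genes above the 5 CPM limit was 0.36.

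**Figure D1:**
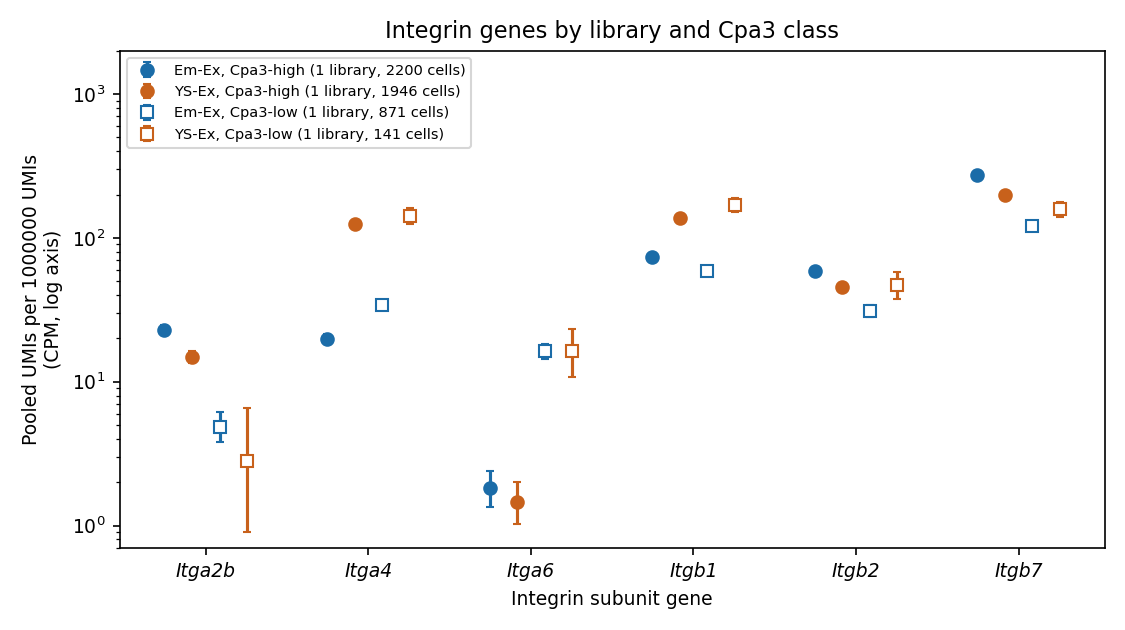
Pooled level of each integrin gene (CPM, log axis) in Cpa3-high cells (filled circles) and Cpa3-low cells (open squares) of Em-Ex (blue) and YS-Ex (orange), with exact Poisson 95% intervals as bars, which cover counting error only. *Itga4* was at 19.8 CPM in Em-Ex against 126 CPM in YS-Ex Cpa3-high cells, and *Itga6* was at 1.83 and 1.47 CPM in the Cpa3-high groups and 16.3 and 16.2 CPM in the Cpa3-low groups.

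Read per cell, *Itga4* was found in more cells and at more UMIs per cell in YS-Ex. UMIs of *Itga4* were found in 17.3% (15.8–19.0%) of Em-Ex and 47.3% (45.1–49.6%) of YS-Ex Cpa3-high cells, at medians of 11246 and 11809 UMIs per cell. Thinned to 3000 UMIs in every cell, which left no cell out, the shares were 5.55% and 22.3%. No Em-Ex cell of the class held more than 8 UMIs of the gene, whereas the highest YS-Ex cell held 35. At least 4 UMIs were found in 16 of the 2200 Em-Ex cells (0.727%, 0.416–1.18%), compared with 273 of 1946 YS-Ex cells (14.0%, 12.5–15.7%), and 60 YS-Ex cells held 10 or more. The mean was 0.246 UMIs per cell in Em-Ex and 1.63 in YS-Ex. In YS-Ex, 1025 of the 1946 cells held none.

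*Itgb1* was found in 54.8% (52.7–56.9%) of Em-Ex and 74.9% (72.9–76.8%) of YS-Ex Cpa3-high cells. *Itgb7* was found in 90.5% (89.2–91.7%) of Em-Ex and 85.1% (83.4–86.7%) of YS-Ex cells, with 4 or more UMIs in 40.9% and 26.7%. *Itgb2* was found in 46.4% (44.3–48.5%) and 40.5% (38.4–42.8%). *Itga2b* was found in fewer cells, 16.7% (15.1–18.3%) and 14.2% (12.7–15.8%), and *Itga6* in 2.23% (1.65–2.93%) and 1.75% (1.21–2.43%). Free RNA can give a UMI to a cell that does not express a gene, and cells that should lack *Itgb2* and *Itgb7* were sought in the 16 Em-Ex cells with 10 or more UMIs of stromal genes per 10000. At a median of 6194 UMIs per cell, *Itgb2* was found in 1 of these 16 cells (6.25%, 0.158–30.2%), *Itgb7* and *Itga4* in 2 each (12.5%, 1.55–38.3%), *Itga6* in 1 (6.25%) and *Itga2b* in none (up to 20.6%). Thinned to 3000 UMIs, *Itgb7* was in 6.25% (0.158–30.2%) of these 16 cells and 55.2% of the Em-Ex Cpa3-high cells, and *Itgb2* in none (up to 20.6%) and 16.3%. At equal depth the Em-Ex Cpa3-high shares of *Itgb2*, *Itga2b*, *Itga4* and *Itga6* lie within the intervals of these 16 cells. So few cells cannot tell the shares apart from background. *Itgb1* was at 20.0% against 43.8% (19.8–70.1%). It, *Itga4* and *Itga6* were not among the genes sought as absent, so no background is read for them. In the 165 Em-Ex cells of the neutrophil granule range, described further on, thinned *Itgb2* was in 2.42% (0.664–6.09%) and *Itga2b* in 0.606% (0.0153–3.33%). In Em-Ex Cpa3-high cells these shares were 16.3% and 5.91%. *Itga4* and *Itga6* were in more of the granule range than of the Cpa3-high cells, at 10.3% and 6.06%.

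**Figure D2:**
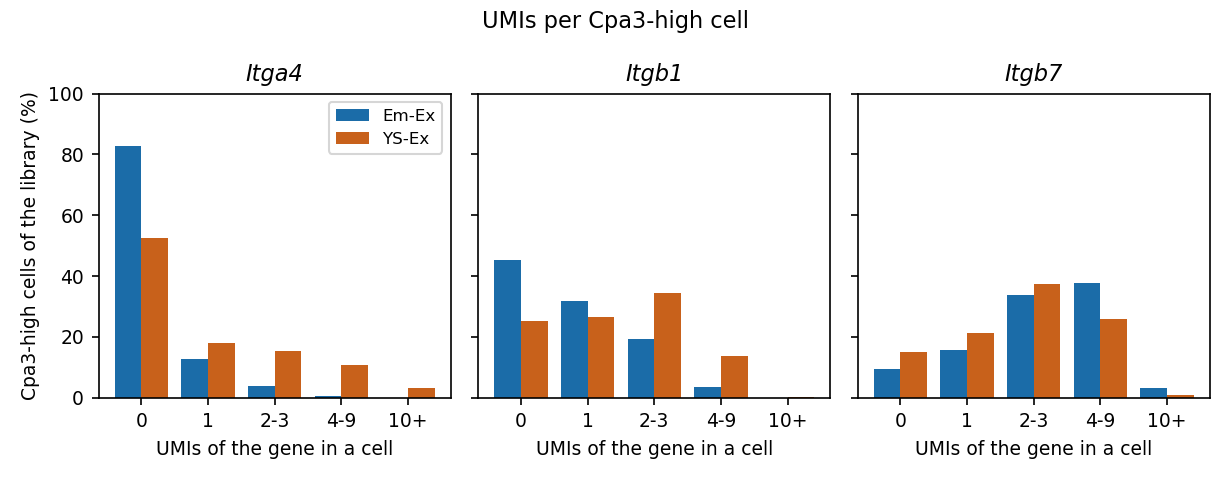
Share of Cpa3-high cells (percent of the library's Cpa3-high cells) by the number of UMIs of *Itga4*, *Itgb1* or *Itgb7* in the cell, for 2200 Em-Ex cells (blue) and 1946 YS-Ex cells (orange). For *Itga4*, 4 or more UMIs were found in 0.727% of Em-Ex against 14.0% of YS-Ex cells.

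The rule did not use other genes of the Cpa3-high cells, and within each library *Itga4* was lower where *Tpsb2* and *Mcpt4*, or *Mcpt1* and *Mcpt2*, were high. Ranked by *Cpa3* itself, its ratio of the highest to the lowest 25% of Cpa3-high cells was 1.03 (0.791–1.33) in Em-Ex, an interval that includes 1, and 0.760 (0.683–0.844) in YS-Ex. For the first of these pairs, cells were ranked by the summed UMIs per 10000 of *Tpsb2* and *Mcpt4*, proteases of connective tissue type mast cells. In YS-Ex, *Itga4* was at 199 CPM (189–209) in the lowest 25% of cells and 49.8 CPM (43.8–56.4) in the highest 25%, 3.99-fold (3.48–4.58) lower in the latter. In Em-Ex it was at 29.0 CPM (25.3–33.0) and 12.3 CPM (9.59–15.6), 2.35-fold (1.78–3.12) lower. *Itgb1* ran the opposite way in both libraries, from 106 CPM (98.6–114) to 198 CPM (186–210.4) in YS-Ex and from 58.4 CPM (53.2–64.1) to 92.2 CPM (84.4–101) in Em-Ex. So the 2 genes that were higher in YS-Ex had opposite gradients inside each library. *Itgb7* differed less, by a ratio of highest to lowest of 0.773 (0.711–0.840) in YS-Ex and 0.906 (0.847–0.968) in Em-Ex. *Itga2b* was 2.01-fold (1.499–2.71) higher in the highest cells of YS-Ex, and its ratio in Em-Ex was 1.18 (0.956–1.46). These cells also differed in depth, with a median of 9856 UMIs in the highest and 14610 in the lowest YS-Ex cells. Thinned to 3000 UMIs, *Itga4* was in 33.9% of the lowest and 11.1% of the highest YS-Ex cells and in 7.09% and 3.64% of the Em-Ex ones.

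By *Mcpt1* and *Mcpt2*, proteases of mucosal mast cells, *Itga4* again was lower in the highest cells. Its ratio of the highest 25% to the cells without any UMI of these genes was 0.432 (0.323–0.571) in Em-Ex and 0.420 (0.374–0.470) in YS-Ex. The highest 25% began at 2.85 UMIs of these genes per 10000 in Em-Ex and at 0.524 in YS-Ex, so the ratios of the 2 libraries rest on unlike cuts. *Itgb7* was 1.45-fold (1.37–1.53) higher in the highest Em-Ex cells, at 374 CPM (358–391) against 258 CPM (249–268), and 1.08-fold (1.01–1.15) higher in YS-Ex. The largest of these ratios was that of *Itga2b* in Em-Ex, 3.12 (2.59–3.78), from 15.8 CPM (13.6–18.2) to 49.4 CPM (43.8–55.7), against 1.48 (1.17–1.85) in YS-Ex. The 2 libraries were not alike in these genes, since *Mcpt1* was at 610.4 CPM in Em-Ex against 119.6 CPM in YS-Ex Cpa3-high cells. *Itgb2* was lower in the highest cells, by a ratio of 0.664 (0.571–0.769) in Em-Ex and 0.819 (0.703–0.951) in YS-Ex, and the intervals of *Itgb1* and *Itga6* included 1 in both libraries.

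Genes of mitosis (*Mki67*, *Top2a*, *Ccnb1*, *Aspm*, *Cenpf* and *Ube2c*) ran against *Itgb7* in both libraries and against *Itga2b* in Em-Ex. *Itgb7* was at 316 CPM (306–326) in Em-Ex cells without any of these transcripts and 214 CPM (204–224) in the highest 25%, and at 218 CPM (210.0–227) and 161 CPM (152–170.4) in YS-Ex. *Itga2b* was at 33.0 CPM (29.8–36.4) and 14.1 CPM (11.7–16.8) in Em-Ex, a ratio of 0.427 (0.345–0.525), and at a ratio of 0.634 (0.489–0.817) in YS-Ex. *Itga4* did not follow these genes beyond counting error, with ratios of 0.972 (0.793–1.19) in Em-Ex and 1.05 (0.964–1.14) in YS-Ex. The cells high in mitosis genes had more UMIs, with medians of 15437 in Em-Ex and 14006 in YS-Ex against 9374.5 and 10419 in the cells without them. Thinned to 3000 UMIs, *Itgb7* was in 59.8% of the cells without these transcripts and 43.6% of the highest in Em-Ex, and in 48.9% and 37.0% in YS-Ex. *Itga2b* thinned was in 7.90% and 4.18% in Em-Ex, but in 4.43% and 4.31% in YS-Ex, where the CPM difference was not seen at equal depth.

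**Figure D3:**
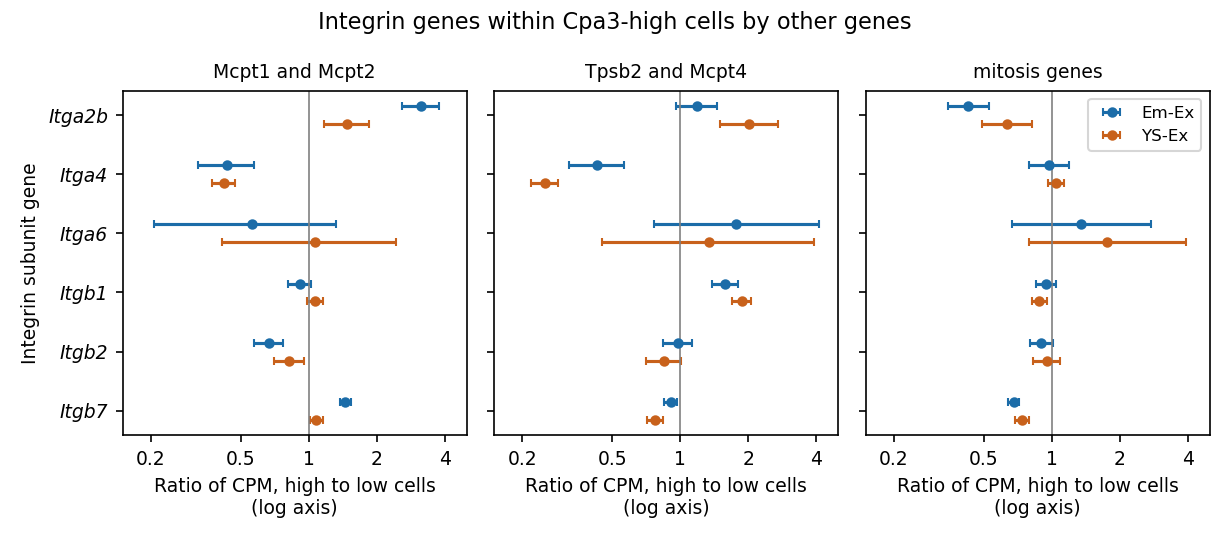
Ratio of each integrin gene's CPM between Cpa3-high cells high and low in other genes (log axis), in Em-Ex (blue) and YS-Ex (orange), with exact 95% counting intervals. High cells are the top 25% by the summed genes named above each panel, and low cells are the bottom 25% or, where more cells than that held none, all cells with none. *Itga4* lies below 1 in both libraries in both protease panels, at 0.251 for *Tpsb2* and *Mcpt4* in YS-Ex.

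Since these proteases and library both went with *Itga4*, the library ratio was read again in cells split by the sum of *Mcpt1*, *Mcpt2* and *Mcpt4*, a split added after seeing the data. Under 1 UMI of these genes per 10000, *Itga4* was at 28.7 CPM (25.6–32.0) in 766 Em-Ex cells and 162 CPM (156–168) in 1205 YS-Ex cells, 5.65-fold (5.03–6.36) higher in YS-Ex. At 1 UMI or more it was at 13.7 CPM (11.9–15.6) in 1434 Em-Ex cells and 48.8 CPM (44.2–53.9) in 741 YS-Ex cells, 3.57-fold (3.02–4.22) higher. *Itga4* was higher in YS-Ex on both sides of the split, and by less in the cells with these proteases. The split left out *Tpsb2*, and protease levels within each side were not matched between the libraries. Whether the proteases account for the library difference was not tested. *Itgb1* was 1.83-fold (1.68–1.99) and 2.12-fold (1.96–2.29) higher in YS-Ex on the 2 sides. *Itgb7* was higher in Em-Ex on both, 1.23-fold (1.17–1.29) and 1.498-fold (1.42–1.59), as was *Itgb2*, 1.30-fold (1.18–1.44) and 1.37-fold (1.21–1.56). *Itga2b* was 1.32-fold (1.11–1.58) higher in Em-Ex in the cells with the proteases, and in the others its ratio of 1.21 had an interval (0.974–1.503) that included 1.

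The Cpa3-low class held 871 Em-Ex cells (28.4%) and 141 YS-Ex cells (6.76%), at medians of 16935 and 10227 UMIs per cell. In Em-Ex, *Itga6*, whose product is a receptor for laminin, was at 16.3 CPM (14.3–18.4) in them, 8.90-fold (6.55–12.3) its level in Cpa3-high cells, or 5.28-fold with cells thinned to 3000 UMIs and 5.80-fold at a *Cpa3* limit of 80. *Itga4* was at 34.2 CPM (31.4–37.3), 1.73-fold (1.53–1.95) its Cpa3-high level, and was found in 37.8% (34.5–41.1%) of the cells. Thinned to 3000 UMIs, it was in 5.55% of the Cpa3-high and 9.30% of the Cpa3-low cells of Em-Ex. The other genes were lower in these cells. *Itgb7* was at 121 CPM (116–127), 2.26-fold (2.15–2.38) lower than in Cpa3-high cells, *Itgb2* at 31.1 CPM (28.4–34.0), 1.88-fold (1.70–2.09) lower, and *Itga2b* at 4.88 CPM (3.84–6.12), 4.70-fold (3.70–6.06) lower, or 2.99-fold with cells thinned. *Itgb1* was at 58.4 CPM (54.7–62.4), 1.27-fold (1.17–1.37) lower. Past 1.5-fold, 2 of the 6 genes were higher and 3 lower in Cpa3-low cells of Em-Ex, where 31.0% of the 8986 genes compared were higher and 13.8% lower. The median of all genes compared was a log2 ratio of 0.25, and centred on it *Itga6* was at 2.89, *Itga4* at 0.54, *Itgb1* at −0.59, *Itgb2* at −1.16, *Itgb7* at −1.43 and *Itga2b* at −2.48, with 1795 genes higher and 1853 lower in place of 2783 and 1242. Centred in this way *Itga4* was no longer past 1.5-fold and *Itgb1* was, and with a *Cpa3* limit of 80 *Itga4* was at 1.37-fold.

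In the YS-Ex library only *Itga6* was past 1.5-fold higher in Cpa3-low cells and only *Itga2b* past 1.5-fold lower, where 20.0% of the 9206 genes compared were higher and 8.19% lower. The median log2 ratio of all these genes was 0.15, and relative to it *Itga6* was at 3.33, *Itgb1* at 0.15, *Itga4* at 0.04, *Itgb2* at −0.09, *Itgb7* at −0.48 and *Itga2b* at −2.42. *Itga4* was at 143 CPM (126–161) in them, a ratio of 1.14 (0.996–1.29), and *Itgb2* at 47.0 CPM (37.5–58.2), a ratio of 1.03 (0.817–1.29). *Itgb7* was at 158 CPM (139.9–177), a ratio of 0.793 (0.701–0.894), and *Itga2b* at 2.80 CPM (0.908–6.53), a ratio of 0.188 (0.0608–0.443). *Itgb1* was at 169 CPM (150.4–189), 1.23-fold (1.09–1.38) higher. These YS-Ex cells were nearer to the limit, with a median of 20.6 UMIs of *Cpa3* per 10000 against 2.36 in the Em-Ex ones. *Itga6* was at 16.2 CPM (10.9–23.3), 11.1-fold (6.57–18.5) its Cpa3-high level, but 17 of its 29 UMIs came from 1 cell, and in the 121 cells outside the marker ranges it was at 4.74 CPM (1.90–9.76).

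With 30 to 40 UMIs of *Cpa3* per 10000 (134 cells), *Itgb7* was at 255 CPM (233–279) and *Itga4* at 17.6 CPM (12.2–24.6), and with 40 to 50 (150 cells) at 244 CPM (224–266) and 18.7 CPM (13.4–25.5). *Itga6* had no UMI under the limit (up to 1.91 CPM) and was at 3.28 CPM (1.32–6.76) over it. In YS-Ex, *Itgb7* was at 169 CPM (132–213) under the limit and 239 CPM (203–279.5) over it, and *Itga4* was at 133 CPM (101–173) in 36 cells under the limit and 67.0 CPM (48.7–89.9) in 51 cells over it. Ranked by *Cpa3* into 10 groups of about equal size, Em-Ex cells had *Itgb7* at 59.5 CPM (53.6–65.9) and 107 CPM (98.2–116) in the lowest groups, both with at most 16.7 UMIs of *Cpa3* per 10000, and at 249 CPM (234–264) in the next. It was at 317 CPM (298–337) in the highest group. In YS-Ex *Itgb7* was at 184 CPM (168–201) in the lowest and 199.9 CPM (183–218) in the highest group. *Itga6* in Em-Ex was at 23.5 CPM (19.8–27.6) and 17.5 CPM (14.1–21.4) in the lowest groups and between 0.725 and 2.51 CPM in the other 8. In YS-Ex it was at 11.4 CPM (7.67–16.2) in the lowest group, 2.89 CPM (1.25–5.70) in the next and at most 2.21 CPM in the others. *Itga2b* ran from 3.03 CPM (1.83–4.73) in the lowest to 52.7 CPM (45.0–61.4) in the highest Em-Ex group, and from 3.79 CPM (1.82–6.96) to 19.3 CPM (14.3–25.4) in YS-Ex.

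**Figure D4:**
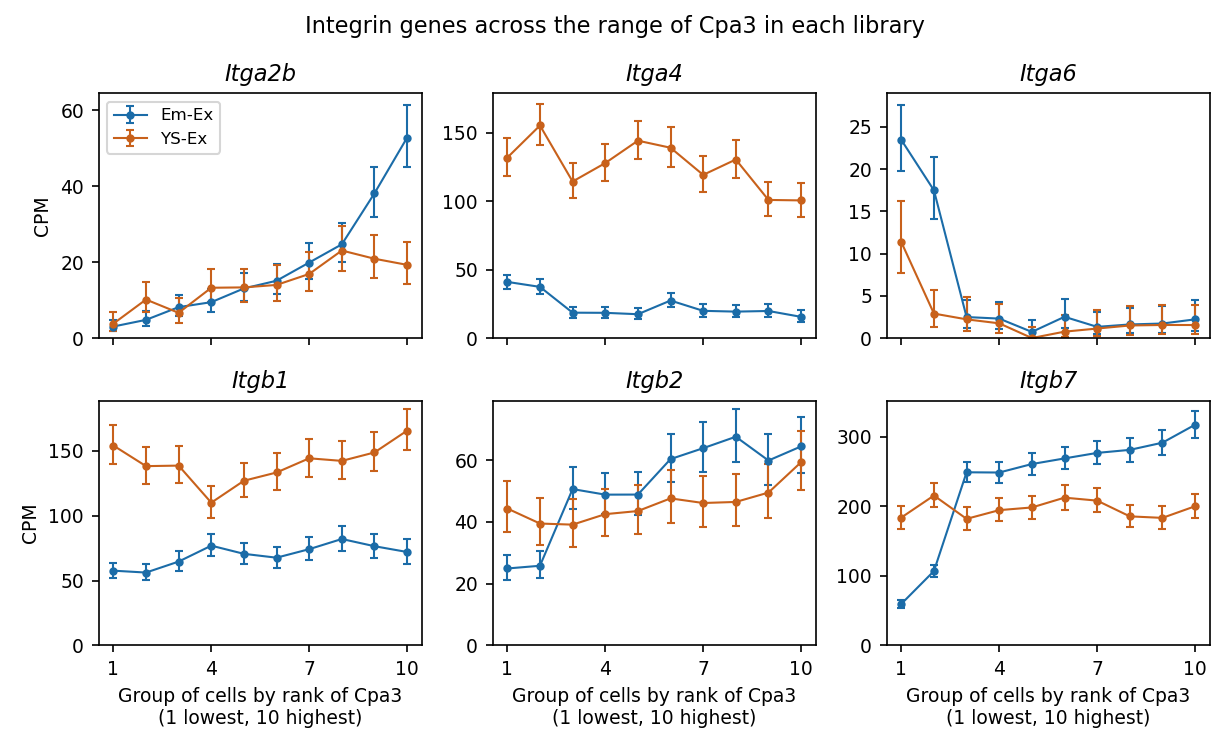
CPM of each integrin gene in 10 groups of cells ranked by *Cpa3* per UMI within Em-Ex (blue) and YS-Ex (orange), with exact Poisson 95% intervals. In Em-Ex, *Itgb7* goes from 59.5 CPM in the lowest group to 317 CPM in the highest, *Itga2b* from 3.03 to 52.7 CPM, and *Itga6* is at 23.5 and 17.5 CPM in the lowest groups and at most 2.51 CPM in the others.

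The Em-Ex Cpa3-low cells held ranges of other kinds, taken as at least 10 UMIs per 10000 of a marker list. The neutrophil granule range (*Mpo*, *Prtn3*, *Elane*, *Ctsg*) held 165 cells with a median of 23967 UMIs, a summed level of these 4 genes of 3246 CPM, and 13.2 CPM in Cpa3-high cells. In it *Itga4* was at 35.5 CPM (29.9–41.9), *Itga6* at 23.8 CPM (19.3–29.2), *Itgb1* at 46.9 CPM (40.4–54.2) and *Itgb7* at 43.4 CPM (37.1–50.4). *Itgb2* was at 8.37 CPM (5.76–11.8), and *Itga2b* had 6 UMIs in all. In the 16 cells of the stromal range, *Itga4* and *Itga6* were each at 26.0 CPM (5.36–76.0) and *Itgb7* at 34.7 CPM (9.45–88.8). These rest on 3 or 4 UMIs per gene, those of *Itga6* all from 1 cell, too few to serve as a background. In Em-Ex Cpa3-high cells *Itga4* was at 19.8 CPM, *Itga6* at 1.83 CPM and *Itgb7* at 275 CPM, and the part of free RNA was not tested. *Itgb2* was at a lower level in the granule range than in Cpa3-high cells. In the 651 Cpa3-low cells outside every range *Itga4* was at 33.9 CPM (30.5–37.6), *Itga6* at 11.9 CPM (9.96–14.2) and *Itgb7* at 155 CPM (148–163).

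The macrophage range (*Csf1r*, *C1qa*, *C1qb*, *C1qc*, *Adgre1*, *Mrc1*, *Ms4a7*) held 26 Em-Ex cells, with all 7 genes detected. *Itga6* was at 76.0 CPM (49.2–112), beside *Itgb1* at 103 CPM (71.6–145) and *Itgb2* at 91.2 CPM (61.6–130.3). *Itgam*, the macrophage partner of β2, was also at 91.2 CPM, against 0.657 CPM (0.390–1.04) in Cpa3-high cells. *Pf4*, *Gp1ba*, *Gp9* and *Itgb3*, which mark megakaryocytes, summed to 1512 CPM in these cells, 6838 CPM in the YS-Ex macrophage range and 29.7 CPM in Em-Ex Cpa3-high cells. *Gp1ba* and *Gp9* were at 0 in both ranges and *Itgb3* at 3.04 CPM in the Em-Ex and 45.2 CPM in the YS-Ex one. The sums in both ranges were thus nearly all *Pf4*, and the part of these genes in the *Itga6* level was not tested. In YS-Ex the range held 7 cells, with *Itgb1* at 524 CPM (398–677) and no UMI of *Itgb7* (up to 33.3 CPM). They gave 22 of the 29 UMIs of *Itga6* and 58 of the 302 UMIs of *Itgb1* in YS-Ex Cpa3-low cells. Of the 12 YS-Ex cells in the neutrophil granule range, 6 shared their barcode with the Em-Ex library, and their integrin levels are not described.

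**Figure D5:**
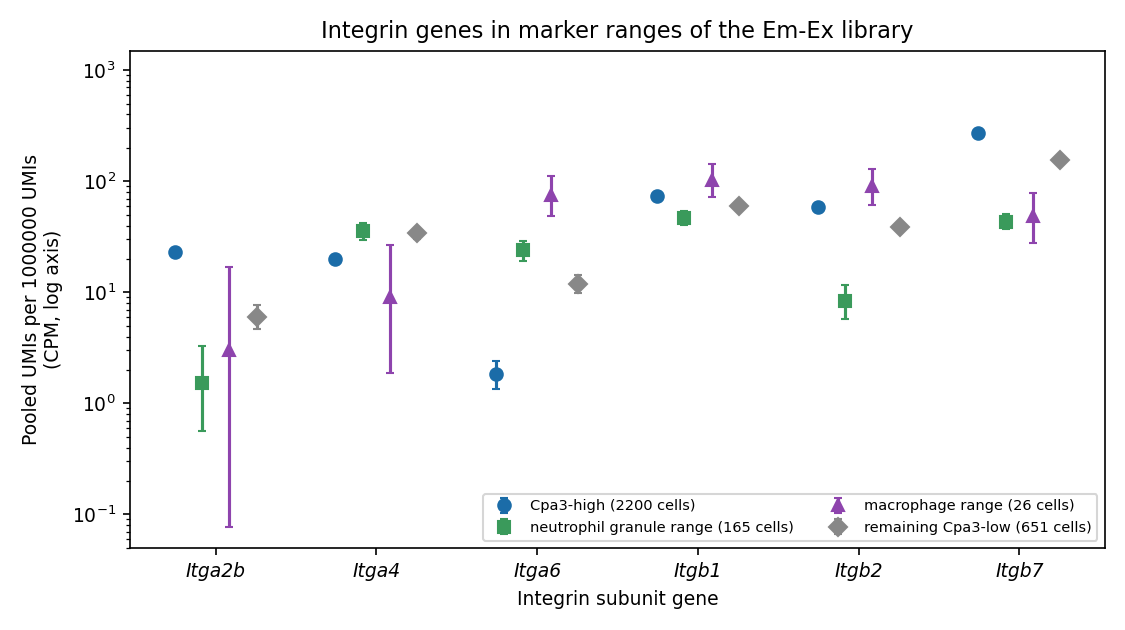
Pooled CPM (log axis) of each integrin gene in 4 classes of Em-Ex cells, with exact Poisson 95% intervals. *Itga6* is at 1.83 CPM in Cpa3-high cells, 23.8 CPM in the neutrophil granule range and 76.0 CPM in the macrophage range, and *Itgb2* is at 8.37 CPM in the neutrophil granule range.

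Both chains of a pair were read in the same cells. UMIs of *Itga4* and *Itgb7* occurred together in 16.5% (14.9–18.1%) of Em-Ex and 41.9% (39.7–44.1%) of YS-Ex Cpa3-high cells, and those of *Itga4* and *Itgb1* in 9.41% (8.22–10.7%) and 35.9% (33.8–38.1%). Thinned to 3000 UMIs, the *Itga4* and *Itgb7* pair was in 3.23% (2.53–4.05%) of Em-Ex and 10.6% (9.25–12.0%) of YS-Ex cells. The product of the 2 single shares was 3.06% and 10.2%, within these intervals. For *Itga4* with *Itgb1* the thinned shares were 0.864% (0.521–1.35%) and 6.53% (5.47–7.72%), with products of 1.11% and 7.43%, again within them. Neither pair occurred together more often than its single shares give, beyond counting error. *Itga6* and *Itgb1* were together in 1.36% of Em-Ex Cpa3-high and 14.4% (12.1–16.9%) of the deeper Em-Ex Cpa3-low cells, and thinned in 0.136% (0.0281–0.398%) and 0.344% (0.0711–1.003%), with overlapping intervals and products of 0.145% and 0.578%.

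The known partners of the other chains were at low levels in Cpa3-high cells. *Itgb3*, which pairs with αIIb, was at 5.30 CPM (4.47–6.23) in Em-Ex against 5.98 CPM (5.07–7.02) in YS-Ex, and only 6 Em-Ex and 6 YS-Ex cells held UMIs of both *Itga2b* and *Itgb3*. *Itgal*, the lymphocyte partner of β2, was at 11.5 CPM (10.3–12.9) and 9.67 CPM (8.49–10.96), and at 21.8 CPM (19.5–24.3) in Em-Ex Cpa3-low cells. *Itgae*, which pairs with β7, was at 1.21 CPM in Em-Ex and, like *Itgax*, listed at 0 in YS-Ex.

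Of the 17 integrin subunit genes, 10 passed the 5 CPM limit in Cpa3-high cells, and besides the genes above *Itga2*, *Itga9* and *Itgav* were past 1.5-fold, all lower in Em-Ex. In all 1 of the 10 was higher and 5 were lower, beside 8.35% and 25.2% of all genes, and 3 of these 6 were chosen from this contrast. *Itga9*, which shares ligands with α4, was at 21.4 CPM (19.7–23.2) in Em-Ex against 38.5 CPM (36.1–41.0) in YS-Ex. *Itga2*, a collagen receptor chain, was at 1.24 CPM (0.860–1.74) and 7.49 CPM (6.46–8.63), and *Itgav* at 6.06 CPM (5.18–7.06) and 10.3 CPM (9.12–11.7). The list's median log2 ratio was −0.47, against −0.07 for all genes. Of 17 adaptor and signalling genes compared, *Tln1*, which encodes talin, *Fermt2*, a kindlin, and *Vcl*, vinculin, were lower in Em-Ex and *Parvg*, a parvin, higher, with a list median of 0.01. These 3 of 17 lower and 1 higher are near or under the shares of all genes, 25.2% and 8.35%. *Tln1* was at 180.5 CPM in Em-Ex against 400.5 CPM in YS-Ex, 2.22-fold (2.14–2.30) higher in YS-Ex. *Fermt3*, the kindlin of blood cells, was at 163 CPM and 178 CPM.

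Of 5 ligand genes compared, *Spp1*, osteopontin, was 3.78-fold (3.19–4.51) higher in Em-Ex, at 24.7 CPM against 6.54 CPM, and the laminin genes *Lama5* and *Lamc1* were 1.84-fold (1.62–2.09) and 1.59-fold (1.22–2.09) higher in YS-Ex, with a list median of 0.43. This 1 of 5 higher and 2 lower stand beside 8.35% and 25.2% of all genes and rest on few genes. Neither *Vcam1* nor *Madcam1*, ligands of the α4 pairs, was in the table. Of 10 homing and membrane partner genes, *Slc3a2*, the CD98 chain that binds beta tails, was 1.61-fold (1.56–1.66) higher in Em-Ex and *Ccr2*, a chemokine receptor, 2.61-fold (2.51–2.72) higher in YS-Ex, with a list median of 0.19. This 1 gene in each direction is near or under the same shares of all genes.

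The pattern of each gene was compared with that of 2726 genes by Pearson's r of log2(CPM + 1) over 20 groups of cells, 10 by rank of *Cpa3* in each library. These groups share 2 libraries and their depth, so r is a description with no test. Nearest to *Itga4* were *mt-Atp8* (r = 0.987), *Pkn2* (0.987) and *Top2b* (0.986), which over all cells were higher in YS-Ex, *Top2b* at 118 CPM against 47.8 CPM. Nearest to *Itgb1* were *Dync1i2* (0.972), *Rrbp1* (0.969) and *Gm9843* (0.969), and to *Itgb7* *Fcgr3* (0.984), an Fc receptor gene, *Lxn* (0.972) and *Card19* (0.972). *Itgb2* was nearest to *Pilra* (0.970), *Cst7* (0.964) and *Gabarap* (0.963), and *Itga2b* to *Cd37* (0.943), *Csrnp1* (0.943) and *Sepw1* (0.942). *Itga6* was nearest to *Mef2c* (0.906), *Bst2* (0.896) and *Ifitm3* (0.881). Among the 6 genes, r was highest for *Itgb2* with *Itgb7* (0.895) and *Itga4* with *Itgb1* (0.862), and lowest for *Itga6* with *Itgb7* (−0.716). *Itga4* and *Itgb1* were both higher in YS-Ex, and their r takes in that library difference. From the lowest to the highest *Cpa3* group of Em-Ex, *Itga4* went from 41.0 to 15.5 CPM and *Itgb1* from 57.6 to 72.0 CPM. In YS-Ex, *Itga4* went from 132 to 101 CPM and *Itgb1* from 154 to 166 CPM.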

How the data were processed

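Per the paper's methods and the labels, the authors sorted cells by flow cytometry and made droplet libraries. The deposited table holds raw UMI counts per gene and cell barcode, made by the authors with Cell Ranger 2.0.1, bcl2fastq 2.19.1.403 and build mm10, as named in the submitters' processing notes. All columns were mapped to a library by their names (0 were left over), and no other file was used. Barcodes with 1000 to 5000 genes and at most 5% of UMIs from 13 mitochondrial genes were kept, and doublets were not removed. Genes with at least 5 CPM in 1 group were compared, log2 ratios used 0.5 added UMIs, and a difference of 1.5-fold was counted. With 1 library per tissue there was no test. Marker ranges took at least 10 UMIs per 10000. Intervals are exact at 95%. The members and gene lists were chosen with earlier results of these data known. The genes named were the 6 members, known partners, list genes past 1.5-fold, the markers and the 3 genes most like each member among those with at least 50 CPM. *Fermt3*, *Mcpt1*, *Vcam1* and *Madcam1* were named besides. The scripts, in Python 3.11.15 with numpy 2.4.6, scipy 1.17.1 and matplotlib 3.10.9, were tested on simulated data. Gene positions came from GENCODE on GRCm38, and promoters from RefSeq on GRCm38.p6.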

Additional observations from a re-analysis of the deposited data

Results flagged for a closer look

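*Itgb1* and *Itgb7* each went one way in Em-Ex and the other in YS-Ex under the same contrast, and with 1 library per tissue the difference was not tested. The log2 ratio of Cpa3-low to Cpa3-high cells for *Itgb1* was −0.34 in Em-Ex and 0.30 in YS-Ex. In YS-Ex, 7 cells of the macrophage range held 58 of the 302 UMIs of *Itgb1* in Cpa3-low cells, and the level in the 121 Cpa3-low cells outside the ranges was 149.5 CPM (130.5–171). Between the highest and the lowest 25% of Cpa3-high cells ranked by *Cpa3*, the log2 ratio of *Itgb7* was 0.30 in Em-Ex and −0.12 in YS-Ex.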

How the results depend on the processing

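No paired analysis was possible because each tissue has 1 library and the labels carry no replicate numbers, and for the same reason no library could be left out. The log2 ratio of Em-Ex to YS-Ex of *Itga6*, 0.31, whose interval includes 0, was −0.02 in cells with 1 UMI or more of the split proteases, and no other log2 ratio changed sign under the alternatives run. The cause of the shifts given here was not tested. For the log2 ratio of Em-Ex to YS-Ex in Cpa3-high cells, a *Cpa3* limit of 80 gave 0.86 for *Itga2b* and 0.54 for *Itgb7*. Cells thinned to 3000 UMIs gave −2.43 for *Itga4* and 0.53 for *Itgb7*, the mean over cells −2.49 for *Itga4*, every deposited barcode 0.41 for *Itgb7* and 0.55 for *Itga2b*, a *Cpa3* limit of 20 0.56 for *Itga2b*, and centring 0.54 for *Itgb7*. The protease split, chosen after seeing the data, gave under 1 UMI 0.28 for *Itga2b*, −2.50 for *Itga4* and 0.30 for *Itgb7*, and at 1 UMI or more 0.40 for *Itga2b*, −1.83 for *Itga4*, −1.08 for *Itgb1* and 0.58 for *Itgb7*. *Itga2b* was thus under 1.5-fold at the limit of 20, with every barcode and on both sides of that split. At a minimum of 20 CPM, 439 genes were higher and 1144 lower.

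For the log2 ratio of Cpa3-low to Cpa3-high cells in Em-Ex, a *Cpa3* limit of 20 gave 0.98 for *Itga4*, −1.17 for *Itgb2* and −1.67 for *Itgb7*. A limit of 80 gave 0.46 for *Itga4*, 2.53 for *Itga6*, −0.21 for *Itgb1*, −0.73 for *Itgb2* and −0.74 for *Itgb7*, with 783 genes lower. Centring gave 0.54 for *Itga4*, −0.59 for *Itgb1*, −1.16 for *Itgb2* and −1.43 for *Itgb7*, with 1795 genes higher. Thinning gave −1.58 for *Itga2b*, 2.40 for *Itga6*, −0.74 for *Itgb2* and −1.04 for *Itgb7*, for which the mean over cells gave −0.96 and leaving out cells above the 95th percentile of UMIs −1.04. At a minimum of 20 CPM, 1435 genes were higher and 816 lower. In the Em-Ex macrophage range, a limit of 5 gave 27.1 CPM for *Itga4* and 93.04 CPM for *Itgb7*, and a limit of 20 gave 0 CPM for *Itga2b* and 16.6 CPM for *Itgb7*.

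Thinned to 3000 UMIs, the share of Cpa3-high cells with a UMI in Em-Ex was 5.91% for *Itga2b*, 5.55% for *Itga4*, 0.727% for *Itga6*, 20.0% for *Itgb1*, 16.3% for *Itgb2* and 55.2% for *Itgb7*. In YS-Ex it was 3.96%, 22.3%, 0.617%, 33.3%, 12.7% and 45.7% for the genes in that order. *Itga6* had 50 UMIs in Em-Ex and 37 in YS-Ex Cpa3-high cells, so a library difference within the interval of its ratio was not detectable at this depth.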
